A study of Mus musculus with 35 samples.

Results

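Cathepsin Z, the neuronal splicing regulator Rbfox3, heat shock chaperones and proteasome subunits were among the transcripts whose difference between SOD1G93A and wild-type motoneurons was not the same at week 15 as at week 11. The quantity described is the interaction of genotype and week, which is the SOD1 effect at week 15 (vehicle-treated SOD1 minus wild type) minus the SOD1 effect at week 11 (SOD1 minus wild type), on the log2 scale. A negative interaction means that a transcript stood lower against wild type at week 15 than it had at week 11. The interaction used the 28 of 35 arrays from mice that received no G-CSF (granulocyte colony-stimulating factor), and described every probe set that names 1 gene, which were 34958 of 45101 probe sets and covered 18194 genes. After a filter on intensity and spread, 25533 of these probe sets, for 14264 genes, were tested.

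There were 4 groups of female mice, and each mouse gave 1 array: 7 SOD1 mice at week 15 that had carried an osmotic minipump with vehicle buffer since week 11, 7 wild-type (WT) mice at week 15, 8 SOD1 mice at week 11 and 6 WT mice at week 11. SOD1 mice carried the high-copy human transgene of strain B6.Cg-Tg(SOD1-G93A)1Gur/J, and WT mice were littermates on the C57BL/6 background. The transgene is present in every cell of the animal and not in motoneurons alone. About 300 motoneurons per mouse were cut from the lumbar spinal cord with a laser, and their RNA passed through 2 rounds of amplification before hybridisation. Different mice were compared at each week, and among SOD1 mice the week went together with the pump, so that week, cohort and pump cannot be told apart. Whether WT mice carried a pump is not given in the sources used here. A pooled sample of 300 cells cannot separate fewer cells of a type from less RNA per cell.

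SOD1G93A mice are a model of amyotrophic lateral sclerosis (ALS), in which a mutant superoxide dismutase misfolds and aggregates, and lumbar motoneurons that drive fast muscle fibres are lost early. Misfolded protein is refolded by heat shock chaperones or marked with ubiquitin and cut up by the proteasome. When chaperones are short, the factor HSF1 binds heat shock elements in the promoters of their genes. A genotype effect seen at both weeks marks a lasting difference, whereas an interaction marks an effect that was not the same at both. Such an effect may appear, vanish, grow, shrink or turn round, and the change may lie in either genotype.

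Values are log2 GCRMA intensities, and errors of effects are standard errors from limma. A probe set was called when its p was under 0.05, its Benjamini-Hochberg adjusted p was under 0.1 and its fold change was at least 1.5. The interaction was called in 993 of 25533 probe sets (3.89%), of which 782 were lower (3.06%) and 211 were higher (0.826%). These belonged to 934 genes. In the same fit 1933 probe sets (7.57%) were called at week 15, 1447 of them lower (5.67%) and 486 higher (1.9%) in vehicle SOD1 mice, and 368 (1.44%) at week 11, 53 of them lower (0.208%) and 315 higher (1.23%) in SOD1 mice. The split of the interaction depended on scaling, since 39.3% of calls were higher after quantile normalization and 7.5% after each array was shifted to a common median, against 21.2% as deposited.

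Properties of the arrays moved with the contrast. The SD over all values of an array averaged 2.22 in vehicle SOD1 mice and 2.29 in WT mice at week 15, and 2.36 in SOD1 mice and 2.30 in WT mice at week 11, an interaction of -0.14 with all arrays and of -0.08 without 3 arrays that stood apart (vehicle SOD1 replicates 3 and 5 and WT week 11 replicate 6). The 18S ribosomal RNA probe set had an interaction of -0.93. The difference between the 3 prime and 5 prime probe sets had one of 0.53 for Gapdh and of 0.15 for beta-actin. Without those 3 arrays 663 probe sets were called. With the array SD as a covariate, a fit chosen after seeing the data, 6 were called, and with 18S as a covariate 338. With the mean of the Gapdh and beta-actin 3 prime minus 5 prime differences as a covariate 244 were called. Called transcripts that were lower had a median level of 6.79 over the arrays, against 4.6 for all tested probe sets and 4.45 for those called higher. The part of array quality in the interactions below was not tested further.

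Of the 993 probe sets 499 had an SOD1 effect called at week 15 only, 136 at week 11 only and 12 at both weeks. The effect had opposite signs with an unadjusted p under 0.05 and at least 1.5-fold at both weeks in 118, which are termed reversed, 106 of them down at week 15 and up at week 11. With the reversed probe sets set apart, 446 were called at week 15 only, 365 of them lower and 81 higher, and 129 at week 11 only, 117 of them lower and 12 higher. In a further 6 the effect was called at both weeks with the same sign and was larger at week 15, no probe set had one that was smaller at week 15, and 294 were called at neither week. The signs of the effects were opposite at the 2 weeks in 900 of the 993. Selection on a difference between the 2 effects itself favours opposite signs. Among those called lower the median effect was -0.78 at week 15 and 0.54 at week 11, and among those called higher 0.52 and -0.32.

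**Figure D1:**
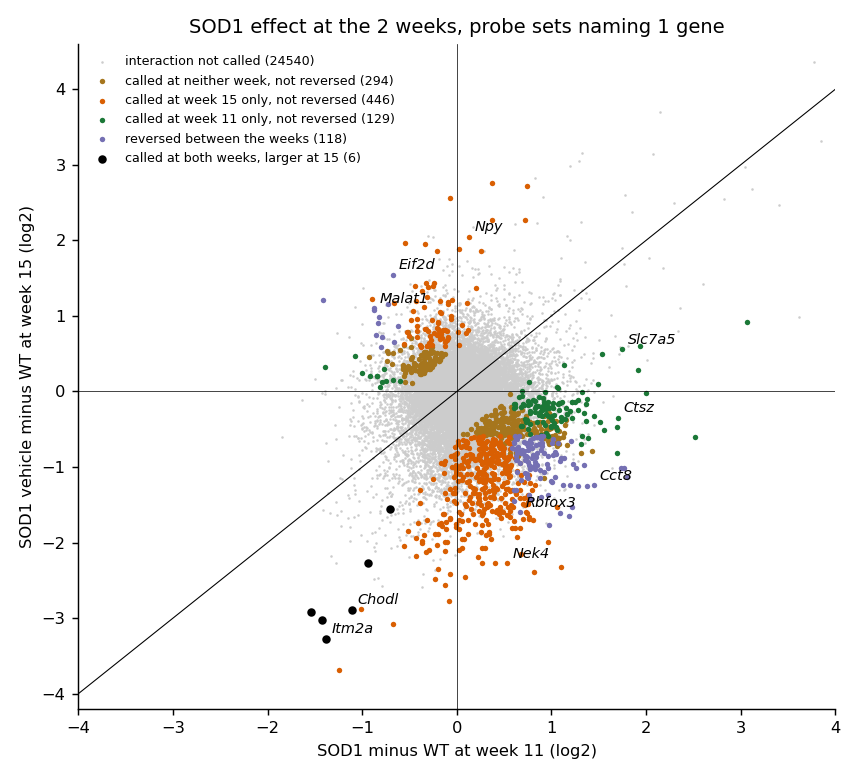
Each point is a probe set naming 1 gene, with its SOD1 minus WT difference at week 15 (vertical axis, log2, vehicle SOD1 mice) against that at week 11 (horizontal axis, log2), and the diagonal marks equal effects. The called interactions lie mostly below the diagonal on the right, where 106 probe sets reversed, while the 6 that grew lie at the lower left. The reversed probe sets are set apart from the other classes.

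Between the weeks, SOD1 mice moved more than WT mice in 824 of the 993 probe sets (83%). That share was not computed over all tested probe sets, so it cannot be called particular to these. The change within SOD1 mice alone was called in 733, the change within WT mice alone in 94, both in 48 and neither in 118. The median change between the weeks was -1.2 in SOD1 mice and 0.09 in WT mice for transcripts called lower, and 0.66 in SOD1 mice and -0.26 in WT mice for those called higher. Over all tested probe sets naming 1 gene, the change between the weeks was called in 27.4% within SOD1 mice and in 6.83% within WT mice. Array properties also differed between the weeks in both genotypes. The 18S probe set averaged 12.8 in vehicle SOD1 and 13.13 in WT mice at week 15, and 10.72 in SOD1 and 10.12 in WT mice at week 11. The part of this shift in the changes between the weeks was not tested.

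**Figure D2:**
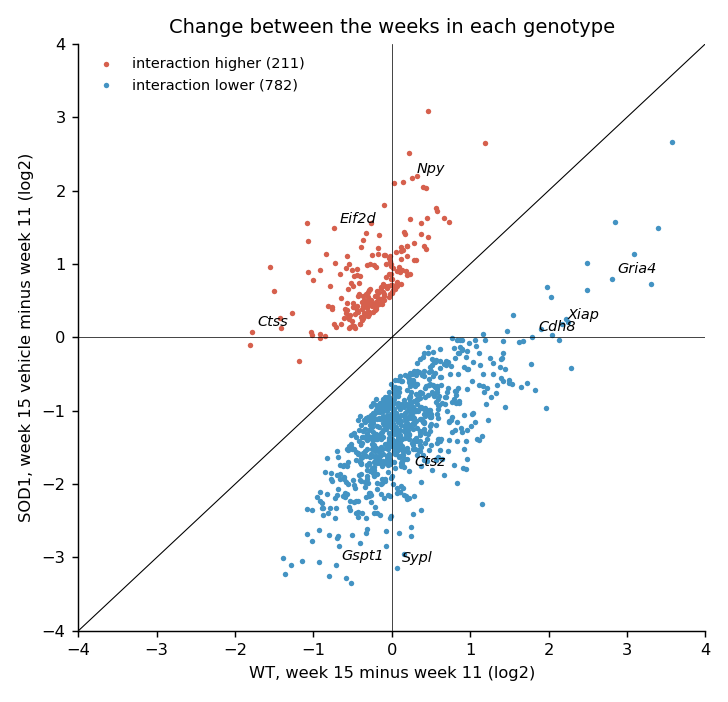
Change between the weeks within SOD1 mice (vertical axis, log2, week 15 vehicle minus week 11) against that within WT mice (horizontal axis, log2) for the 993 called probe sets. The 782 called lower lie in a column around no change in WT mice, and a tail to the right, with Gria4, Cdh8 and Xiap, holds transcripts that changed in WT mice.

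Ctsz, which encodes the lysosomal carboxypeptidase cathepsin Z, had the smallest p of all. The probe set with that p spanned 2.85 to 3.35 (median 3.1) in vehicle SOD1 mice and 2.9 to 4.02 (median 3.4) in WT mice at week 15. The week 11 mice gave 4.39 to 5.64 (median 4.8) in SOD1 mice and 2.98 to 3.55 (median 3.21) in WT mice. All 8 SOD1 mice at week 11 therefore lay above every WT mouse of that week, and the groups overlapped at week 15. The medians of 3.1, 3.4 and 3.21 are near background, where folds are compressed. This probe set therefore cannot show whether an SOD1 effect was absent at week 15. The effect was -0.35 ± 0.18 at week 15 and 1.7 ± 0.18 at week 11, and the interaction was -2.05 ± 0.26 (adjusted p = 0.000437). A second Ctsz probe set gave -3.11 ± 0.42 (adjusted p = 0.000697), with effects of -0.6 at week 15 and 2.51 at week 11. The brightest Ctsz probe set had the same sign but was not called (-0.84 ± 0.38, adjusted p = 0.229), with effects of 0.5 at week 15 and 1.34 at week 11. Calls of other cathepsins had both directions: Ctsb (-1.52 ± 0.47, adjusted p = 0.0931) and Ctsf (-1.33 ± 0.4, adjusted p = 0.0847) were lower in 1 probe set each, although the brightest Ctsf probe set was at 0.55 (adjusted p = 0.149) and a Ctsb probe set with effects of 1.24 at week 15 and 1.01 at week 11 was at 0.24 (adjusted p = 0.743), and Ctss, described with the microglial transcripts, was higher.

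Eif2d encodes an initiation factor that brings transfer RNA to the ribosome by a route apart from the main factor eIF2. Eif2d spanned 5.32 to 6.96 (median 6.67) in vehicle SOD1 mice and 4.45 to 5.34 (median 4.92) in WT mice at week 15. Among week 11 mice it spanned 4.63 to 5.32 (median 4.88) in SOD1 mice and 5.18 to 6.3 (median 5.6) in WT mice. In 6 of 7 vehicle SOD1 mice the value was above all WT mice of week 15, while 5 of 8 SOD1 mice at week 11 were below all WT mice of that week. The effect was 1.54 ± 0.23 at week 15 and -0.68 ± 0.23 at week 11, an interaction of 2.22 ± 0.32 (adjusted p = 0.00169). Its other probe sets were at 0.85 (adjusted p = 0.127), 0.52 and 0.36 and were not called.

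Rbfox3 encodes NeuN, the nuclear splicing regulator used as a marker of mature neurons. Rbfox3 spanned 3.16 to 4.93 (median 4.45) in vehicle SOD1 mice and 5.54 to 6.12 (median 5.76) in WT mice at week 15, with no overlap. At week 11 it spanned 5.24 to 6.79 (median 5.58) in SOD1 mice and 4.43 to 5.4 (median 5.23) in WT mice, and 7 of 8 SOD1 mice lay above every WT mouse. The interaction was -2.27 ± 0.36 (adjusted p = 0.00541), from an effect of -1.6 ± 0.25 at week 15 and 0.67 ± 0.25 at week 11. Without the 3 arrays that stood apart it was -1.88 (adjusted p = 0.0124). This was 1 of several Rbfox3 probe sets, and the brightest (-0.49 ± 0.23, adjusted p = 0.238) and a further one (-0.3 ± 0.29, adjusted p = 0.577) were not called.

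Calb2, encoding the calcium-binding protein calretinin, followed the same course at a higher level. It spanned 8.09 to 8.87 (median 8.49) in vehicle SOD1 mice and 8.88 to 9.29 (median 8.99) in WT mice at week 15, so that the highest vehicle mouse lay just below the lowest WT mouse. The week 11 mice gave 8.98 to 10.32 (median 9.94) in SOD1 mice and 8.69 to 9.38 (median 9.1) in WT mice. The interaction was -1.34 ± 0.22 (adjusted p = 0.00957).

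These called probe sets of Ctsz, Eif2d, Rbfox3 and Calb2 were called in each of 18 alternative fits, which leave out the fit with the array SD, and without any 1 of the 28 mice. A value given for a gene is that of its called probe set, and other probe sets of the same gene often did not pass or had the opposite sign. Of the 285 called probe sets selected for naming, 68 were called in all 18 alternatives and 155 without any 1 mouse, and all 285 kept their sign in every such fit. They were selected by their calls on the same arrays, which itself favours such agreement. Several of the 18 changed only the filter, the threshold or the variance estimate and left the interaction as it was. The one without a minimum fold change could not lose a call. With the array SD as a covariate 4 of the 285 were called, among them both Ctsz probe sets (-1.88 and -2.49) and Eif2d (2.48), while Rbfox3 (-1.73) and Calb2 (-1.27) were not.

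**Figure D3:**
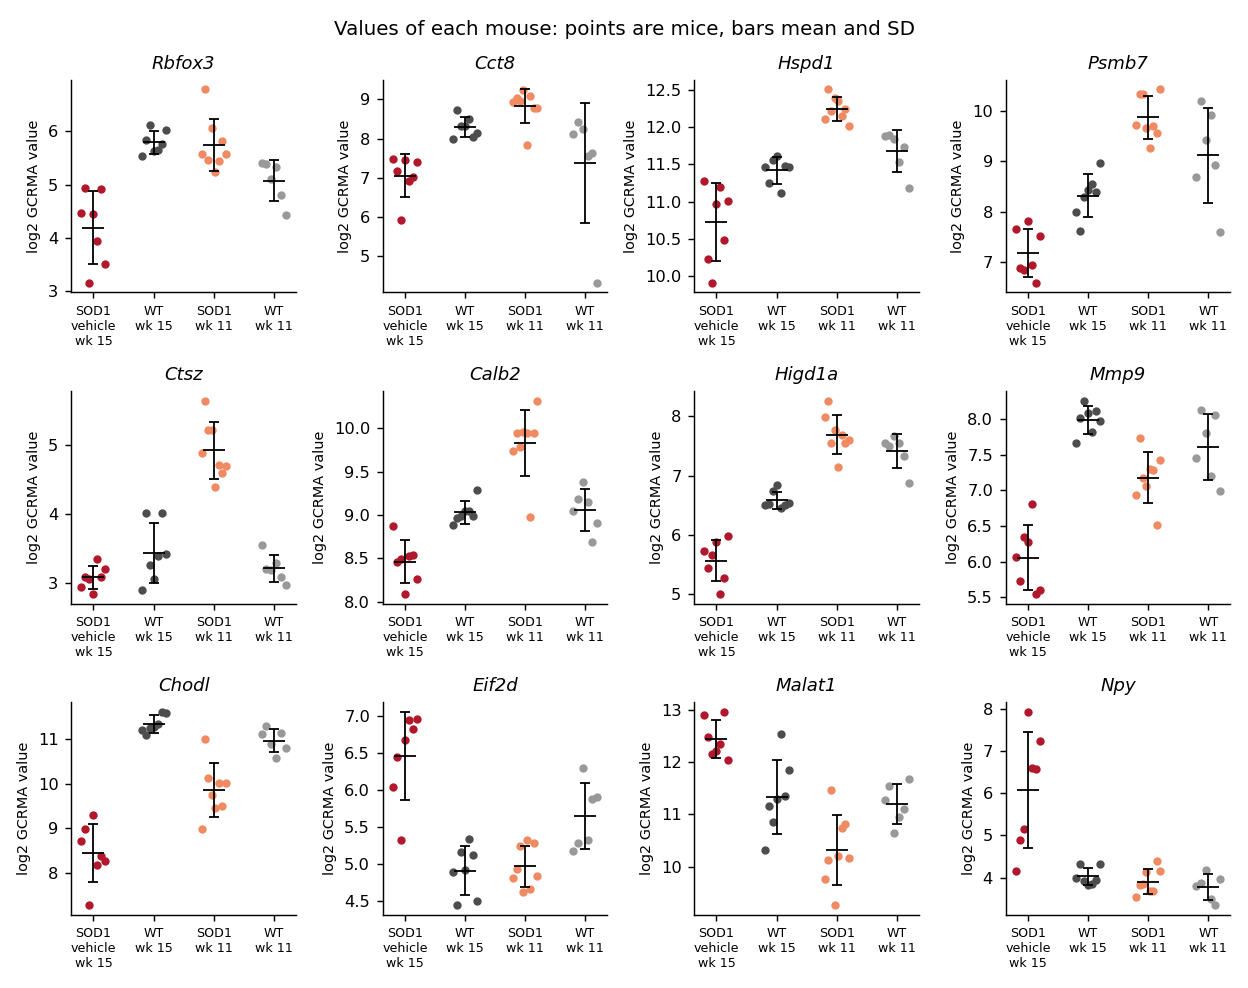
Log2 GCRMA value of each mouse (points) with the group mean and SD (bars) for 12 transcripts, in vehicle SOD1 and WT mice at week 15 and SOD1 and WT mice at week 11. Rbfox3, Cct8, Calb2, Higd1a, Mmp9 and Chodl separate the genotypes at week 15, Ctsz and Hspd1 separate them at week 11, and each vertical axis has its own range and does not start at 0.

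Of the pathway lists, chaperones had the highest share of calls. By the brightest probe set of each gene, 14 of 37 cytosolic and mitochondrial chaperones were called lower (37.8%) and 0 higher, against 3.18% lower, 0.953% higher and 4.14% in either direction of all 14264 genes. The median interaction of the chaperones was -0.88, from median effects of -0.36 at week 15 and 0.47 at week 11, beside a median interaction of -0.05 over all genes. In 31 of 37 chaperones (83.8%) the effect was below 0 at week 15 and above 0 at week 11, as it was for 29.6% of all genes. These were bright transcripts, with a median level of 9.74 against 5.44 over all genes. Other lists of bright genes differed among themselves: the median interaction was 0.09 for 42 cytosolic ribosomal protein genes (level 9.92, 0 called), -0.5 for 32 genes of glycolysis and the tricarboxylic acid cycle (level 9.97, 15.6% called) and -0.64 for 13 general neuron markers (level 10.21, 15.4% called). With the array SD as a covariate none of the gene lists had a call by the brightest probe set.

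The summed chaperone level, taken as the log2 of the summed linear values of the 37 genes, separated the genotypes in opposite directions at the 2 weeks. It ran between 14.64 and 15.19 (median 15.12) in vehicle SOD1 mice and between 15.2 and 15.4 (median 15.32) in WT mice at week 15. At week 11 it ran between 15.58 and 15.91 (median 15.7) in SOD1 mice and between 14.76 and 15.51 (median 15.4) in WT mice. The groups did not overlap at either week, although the gap at week 15 was narrow, and they did not overlap without the 3 arrays that stood apart. Without those arrays 11 chaperones were called and the median was -0.61, after quantile normalization 5 were called (median -0.66), and with the array SD as a covariate 0 were called (median -0.29). Leaving out single mice gave between 6 calls (without SOD1 week 11 replicate 2) and 17 (without vehicle SOD1 replicate 4).

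Hspd1, the mitochondrial chaperonin that folds imported proteins, spanned 9.91 to 11.28 (median 10.97) in vehicle SOD1 mice and 11.11 to 11.62 (median 11.47) in WT mice at week 15. It spanned 12.02 to 12.51 (median 12.24) in SOD1 mice and 11.18 to 11.9 (median 11.79) in WT mice at week 11. Every SOD1 mouse at week 11 lay above the WT mice of that week. The interaction was -1.27 ± 0.25 (adjusted p = 0.0205), with effects of -0.7 at week 15 and 0.57 at week 11.

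Cct8 is a subunit of the CCT chaperonin, which folds actin and tubulin. It spanned 5.91 to 7.48 (median 7.17) in vehicle SOD1 mice and 7.98 to 8.72 (median 8.31) in WT mice at week 15, without overlap. Among week 11 mice it spanned 7.84 to 9.23 (median 8.94) in SOD1 mice and 4.32 to 8.42 (median 7.87) in WT mice. The value 4.32 belonged to WT replicate 6, and the Cct8 interaction was -2.69 ± 0.58 (adjusted p = 0.0305) with all arrays and -1.82 (adjusted p = 0.00504) without the 3 arrays that stood apart. A further CCT subunit, Cct5, was called lower (-0.92 ± 0.27, adjusted p = 0.0792), while the brightest probe set of Cct4 was at 0.31 ± 0.19 (adjusted p = 0.368).

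Hspb1, a small heat shock protein that rises after axon injury, spanned 7.98 to 9.74 (median 9.16) in vehicle SOD1 mice and 9.3 to 9.87 (median 9.46) in WT mice at week 15. At week 11 it spanned 9.88 to 10.96 (median 10.5) in SOD1 mice and 9.45 to 10.08 (median 9.79) in WT mice. Its interaction was -1.25 ± 0.29 (adjusted p = 0.0416), and a second Hspb1 probe set gave -1.1 ± 0.27 (adjusted p = 0.0493). The effect was called only at week 11 in each, and 7 of 8 SOD1 mice at week 11 lay above every WT mouse of that week in each.

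The other chaperones called were the HSP70 member Hspa8 (-1.08), the HSP90 member Hsp90aa1 (-0.88), the HSP110 member Hsph1 (-0.74), the HSP40 members Dnaja1 (-1.08), Dnajb1 (-0.76) and Dnajc7 (-1.19, adjusted p = 0.0197), and the cochaperones Bag3 (-1.69), Stip1 (-1.25), Ahsa1 (-0.9) and Cdc37 (-1.02). Dnajc7, Hspd1 and Cct8 were called in all 18 alternatives. Dimmer probe sets of Cdc37 (0.41, adjusted p = 0.715) and Ahsa1 (0.09, adjusted p = 0.911) had the opposite sign and were not called. Probe sets also differed for Hspa4 and Dnaja2. Hspa4, an HSP110-family chaperone, had interactions of -2.77 ± 0.66 (adjusted p = 0.0446) and -1.87 ± 0.52 (adjusted p = 0.0724) in its called probe sets and -0.46 ± 0.15 (adjusted p = 0.106) in its brightest. Dnaja2, an HSP40 member, had -2.83 ± 0.78 (adjusted p = 0.0709) in the called probe set and -1.07 ± 0.38 (adjusted p = 0.131) in its brightest, and WT week 11 replicate 6 had a Dnaja2 value of 3.35 where the median of its group was 8.56.

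**Figure D4:**
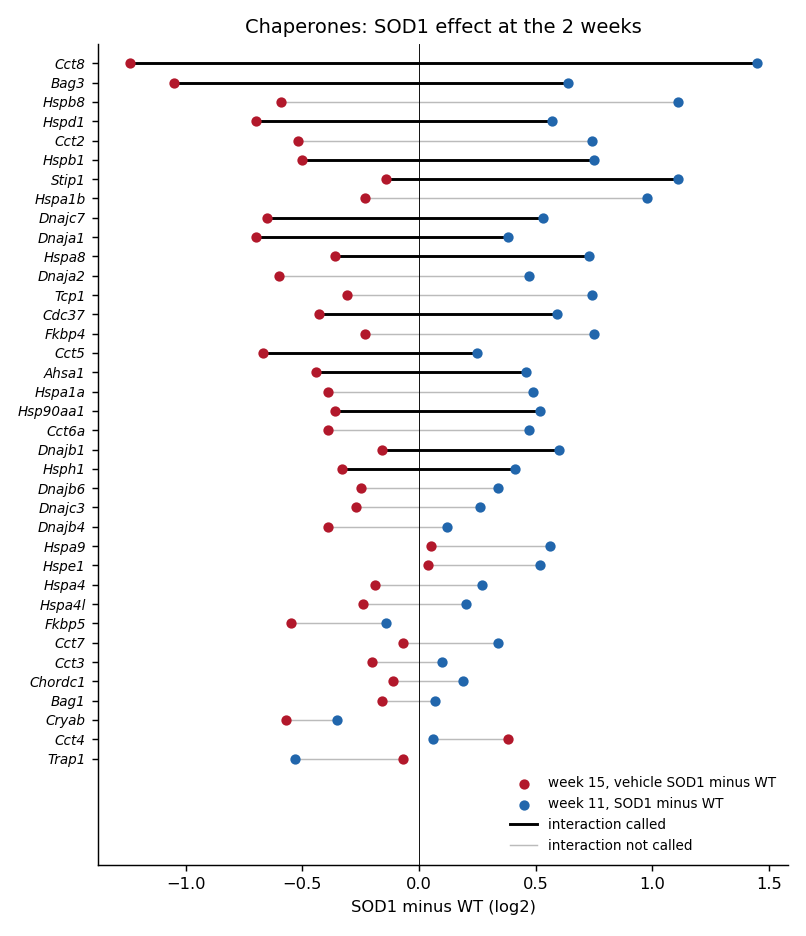
SOD1 minus WT difference (log2) of 37 chaperones at week 15 (red, vehicle SOD1 mice) and at week 11 (blue), each by its brightest probe set, with black lines for the 14 called interactions. In 31 of 37 the red point lies left of 0 and the blue point right of it.

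Promoters are shown for the 3 called chaperone genes whose upstream sequence holds a palindromic pair of heat shock units, since HSF1 binds such units. The motif searched was GAANNTTC, which reads the same on both strands, within 250 bases before the RefSeq start. It stood in 9 of 32 chaperone genes with a promoter in the RefSeq table, in 3 of 14 with a called probe set, and in 2199 of 32851 promoters of the table (6.69%). A match is a description of letters and no binding was measured. The 160 bases before the start are given 5′ to 3′ (GRCm38.p6) with the motif in capitals, at chr4:40722308-40722467 on the plus strand for Dnaja1, chr5:135887759-135887918 on the plus strand for Hspb1, which holds 2 motifs, and chr1:55087933-55088092 on the minus strand for Hspd1.
Dnaja1: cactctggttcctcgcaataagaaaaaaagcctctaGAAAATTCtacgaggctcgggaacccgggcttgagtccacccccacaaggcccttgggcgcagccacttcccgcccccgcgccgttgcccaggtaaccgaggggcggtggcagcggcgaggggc
Hspb1: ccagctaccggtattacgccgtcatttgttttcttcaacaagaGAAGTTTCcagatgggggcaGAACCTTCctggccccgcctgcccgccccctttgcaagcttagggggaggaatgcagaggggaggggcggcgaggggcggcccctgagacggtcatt
Hspd1: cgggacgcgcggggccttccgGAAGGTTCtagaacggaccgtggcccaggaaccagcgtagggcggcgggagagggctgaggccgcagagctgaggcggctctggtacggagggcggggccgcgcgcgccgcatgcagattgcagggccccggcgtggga
The nearest motif ended 116 bases before the start in Dnaja1, 89 in Hspb1 and 131 in Hspd1, and the interactions of these genes were -1.08, -1.25 and -1.27.

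Proteasome subunits moved in the same direction. Of 37 subunits and activators 8 were called lower (21.6%, against 3.18% lower of all genes) and 0 higher. The median interaction was -0.62 (median effects -0.34 at week 15 and 0.3 at week 11), and 31 of 37 were below 0, against 53.5% of all genes. The summed level ran between 14.46 and 14.82 (median 14.69) in vehicle SOD1 mice and between 14.72 and 14.94 (median 14.87) in WT mice at week 15, and between 15.09 and 15.42 (median 15.27) in SOD1 mice and between 14.76 and 15.31 (median 15.11) in WT mice at week 11. The genotypes overlapped at both weeks, which was not so for the chaperones. Without the 3 arrays 5 subunits were called, with the array SD as a covariate 0, and leaving out single mice gave 4 (without WT week 15 replicate 7) to 12 (without vehicle SOD1 replicate 5).

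Psmb7 encodes the trypsin-like catalytic subunit of the proteasome core. It spanned 6.59 to 7.81 (median 6.95) in vehicle SOD1 mice and 7.61 to 8.96 (median 8.39) in WT mice at week 15, and 9.27 to 10.43 (median 9.72) in SOD1 mice and 7.59 to 10.19 (median 9.18) in WT mice at week 11. Within SOD1 mice the groups of the 2 weeks did not overlap, a change of -2.7 (adjusted p = 3.91e-07), where WT mice changed by -0.8 (adjusted p = 0.144). The Psmb7 interaction was -1.9 ± 0.43 (adjusted p = 0.0353).

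Psme3, the nuclear activator PA28 gamma, spanned 3.22 to 5.98 (median 4.51) in vehicle SOD1 mice and 3.94 to 6.52 (median 5.67) in WT mice at week 15. It spanned 6.67 to 7.68 (median 7.36) in SOD1 mice and 2.84 to 6.9 (median 5.85) in WT mice at week 11. Groups overlapped at both weeks and the interaction was -2.75 ± 0.64 (adjusted p = 0.0426), while the brighter Psme3 probe set, the one counted above, was at -1.56 ± 0.62 (adjusted p = 0.176). Of the regulatory cap, Psmd6 (-1.08), Psmd7 (-1.54), Psmd4 (-1.05 in its brightest probe set), Psmd12 (-0.83) and Psmd11 (-0.62) and the ATPases Psmc5 (-1.69) and Psmc2 (-0.91) were called lower, Psmd6 in all 18 alternatives.

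Among enzymes that attach ubiquitin, 1 of 43 was called by the brightest probe set (2.33%, against 4.14% of all genes), and 9 by any. The conjugating enzymes Ube2d3 (-1.65 ± 0.37, adjusted p = 0.0353) and Ube2n (-1.45 ± 0.34, adjusted p = 0.0442) and the ligases Rnf11 (-1.69 ± 0.32, adjusted p = 0.0197) and Ubr3 (-2.22 ± 0.53, adjusted p = 0.0453) were lower in all 18 alternatives. Of these Rnf11 was called in its brightest probe set, whereas the brightest were at -0.37 for Ube2d3, -0.62 for Ube2n and -0.29 for Ubr3. Huwe1, a large ligase, was called higher in 1 probe set (1.11 ± 0.34, adjusted p = 0.0926), with the brightest at -0.13. The autophagy genes Becn1 (-1.98 ± 0.52, adjusted p = 0.0606) and Sqstm1 (-1.49 ± 0.47, adjusted p = 0.0986), encoding beclin and the cargo receptor p62, were called lower, and Atg13 (0.73 ± 0.2, adjusted p = 0.0714), part of the initiating kinase complex, higher. Probe sets of Becn1 disagreed, the brightest being at -1.05 (adjusted p = 0.102) and another at 0.97 (adjusted p = 0.108).

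The ER chaperones Hspa5 (-0.9), Hsp90b1 (-0.7) and Pdia3 (-2.24), the ER stress factor Xbp1 (-1.03) and the ER-associated degradation protein Herpud1 (-1.15 and -0.63 in its probe sets) were called lower as well, but for Hsp90b1 (-0.24), Pdia3 (-0.16) and Xbp1 (-1.69) the brightest probe set was not called. The brightest Herpud1 probe set was at -0.2 at week 15 and at 0.95 at week 11. By the brightest probe set the ER list held 2 calls of 32 genes (6.25%, against 4.14% of all genes), with a median of -0.51.

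Of 19 motoneuron markers 6 were called lower at week 15 and 0 higher, against 6.18% lower of all genes, and 1 was called in each direction at week 11. In the interaction 5 were called lower (26.3%, against 3.18% lower of all genes) and 0 higher (median -0.49). These were Ache, Prima1, Chodl, Mmp9 and the homeobox factor Mnx1 (-1.33 ± 0.36, adjusted p = 0.0649). With the 3 prime minus 5 prime covariate 2 motoneuron markers were called lower. Of 13 general neuron markers 2 were called lower (15.4%, median -0.64), the enolase Eno2 (-1.24) and the ubiquitin hydrolase Uchl1 (-1.38 ± 0.31, adjusted p = 0.0364). The summed level of the motoneuron markers ran between 11.51 and 12.3 (median 11.95) in vehicle SOD1 mice and between 12.72 and 13.01 (median 12.85) in WT mice at week 15, without overlap, and between 12.35 and 12.88 (median 12.48) in SOD1 mice and between 12.34 and 12.76 (median 12.7) in WT mice at week 11. The defining transcript Chat, the acetylcholine-synthesising enzyme, was near background in all groups, with medians of 3.31, 2.91, 2.78 and 2.91 in vehicle SOD1 and WT mice at week 15 and SOD1 and WT mice at week 11. The homeobox factor Isl1 had medians of 7.91, 7.72, 7.8 and 8.26 in the same order and an interaction of 0.59 (adjusted p = 0.468).

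Chodl encodes chondrolectin, a membrane protein of fast motoneurons, and its effect grew. It spanned 7.28 to 9.29 (median 8.37) in vehicle SOD1 mice and 11.09 to 11.61 (median 11.26) in WT mice at week 15. The week 11 mice gave 8.99 to 11 (median 9.88) in SOD1 mice and 10.57 to 11.29 (median 10.99) in WT mice. No vehicle SOD1 mouse reached the WT range at week 15, and 7 of 8 SOD1 mice lay below it at week 11. The effect was -2.89 ± 0.25 at week 15 and -1.11 ± 0.25 at week 11, an interaction of -1.78 ± 0.36 (adjusted p = 0.0239) that was called in all 18 alternatives.

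Mmp9, a secreted protease enriched in the fast motoneurons most vulnerable in ALS mice, spanned 5.55 to 6.81 (median 6.07) in vehicle SOD1 mice and 7.66 to 8.26 (median 8.02) in WT mice at week 15. Among week 11 mice it spanned 6.52 to 7.73 (median 7.23) in SOD1 mice and 6.99 to 8.13 (median 7.63) in WT mice. The genotypes were apart at week 15 and overlapped at week 11, where the effect of -0.43 ± 0.21 was not called (adjusted p = 0.425). The interaction was -1.51 ± 0.29 (adjusted p = 0.0197).

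Ache, which encodes acetylcholinesterase, and Prima1, which encodes its membrane anchor, were called with different courses. Ache spanned 4.52 to 6.79 (median 6.36) in vehicle SOD1 mice and 6.32 to 7.47 (median 6.87) in WT mice at week 15, and 7.1 to 8.42 (median 7.71) in SOD1 mice and 4.44 to 7.33 (median 6.58) in WT mice at week 11. Its effect was called only at week 11 (1.31 ± 0.35), and the interaction was -2.01 ± 0.49 (adjusted p = 0.049). Prima1 spanned 2.35 to 6.3 (median 5.18) in vehicle SOD1 mice and 6.62 to 8.27 (median 7.67) in WT mice at week 15, and 5.17 to 6.19 (median 5.55) in SOD1 mice and 4.49 to 6.93 (median 6.49) in WT mice at week 11. Its effect was called only at week 15 (-3.08 ± 0.44), and its interaction of -2.4 ± 0.62 (adjusted p = 0.0573) was -1.35 (adjusted p = 0.0961) without the 3 arrays.

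The other effects that grew were those of Itm2a, an integral membrane protein, Mest, an imprinted hydrolase-fold gene, Tmem255a, a transmembrane protein gene, and Ighm, the immunoglobulin heavy chain. Itm2a was -3.27 ± 0.32 at week 15 and -1.38 ± 0.32 at week 11, with a range of 6.64 to 9.47 in vehicle SOD1 mice and 10.93 to 11.65 in WT mice at week 15, and 9.4 to 10.88 in SOD1 mice and 10.43 to 11.84 in WT mice at week 11. The interaction of Itm2a was -1.89 ± 0.45 (adjusted p = 0.0457, and 0.109 without the 3 arrays). Those of Mest (-1.33 ± 0.31, adjusted p = 0.038) and Tmem255a (-0.85 ± 0.23, adjusted p = 0.0675) were smaller. The probe sets of Ighm had -1.6 ± 0.5 (adjusted p = 0.0949) and -1.38 ± 0.42 (adjusted p = 0.0904), and without the 3 arrays neither was called (adjusted p = 0.282 and 0.232).

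Of 26 ALS-linked genes 5 were called lower and 2 higher (26.9%, against 4.14% of all genes). After quantile normalization 2 were called lower and 2 higher. Pfn1, the actin-binding protein profilin, spanned 5.69 to 7.26 (median 6.35) in vehicle SOD1 mice and 6.28 to 7.22 (median 6.62) in WT mice at week 15, and 6.41 to 7.67 (median 7.23) in SOD1 mice and 5.56 to 6.65 (median 5.92) in WT mice at week 11. In 7 of 8 SOD1 mice at week 11 Pfn1 was above every WT mouse, and the interaction was -1.49 ± 0.32 (adjusted p = 0.0311). The segregase Vcp (-1.09), the tubulin Tuba4a (-0.81) and Sqstm1 were lower too, while the glycosyltransferase Glt8d1 (1.24 ± 0.25, adjusted p = 0.0263) was higher. The other Vcp probe set had the opposite sign and was not called. The brightest Sod1 probe set was at -1 ± 0.25 (adjusted p = 0.0526), with ranges of 9.79 to 11.07 and 10.73 to 11.13 in vehicle SOD1 and WT mice at week 15 and 11.6 to 12.26 and 10.47 to 11.73 in SOD1 and WT mice at week 11. Its other probe sets were at 0.83 and 0.88 and were not called. The Sod1 probes were designed on the mouse transcript, and how far they bind human transgene RNA was not tested.

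Translation factors were called lower in 6 of 38 genes (15.8%, against 3.18% lower of all genes) and higher in 0, with a median interaction of -0.42. These were the eIF2 subunit Eif2s2 (-0.85), the eIF3 subunits Eif3m (-1.59 ± 0.38, adjusted p = 0.0457) and Eif3h (-0.78), the helicase Eif4a2 (-1.58), the eIF4G relative Eif4g2 (-1.46) and the elongation factor Eif5a (-1.44 ± 0.31, adjusted p = 0.0311). Of 5 other Eif2s2 probe sets 2 had the same sign, and the other Eif3m probe set had the opposite sign. The eIF3 subunit Eif3e (-1.16) and the termination factors Etf1 (-1.9) and Gspt1 (-2.39 and -2.45) were called lower in dimmer probe sets, while their brightest were at -0.14, -0.27 and -0.75 and were not called. Eif2d was the exception in direction among the translation factors named here. The ribosomal protein genes Rps9 (1.53) and Rpl35 (0.79) were called higher in 1 probe set each, with the other Rps9 probe set at -0.82 and not called. By the brightest probe set 1 of 20 aminoacyl-tRNA synthetases was called (5%, against 4.14% of all genes), which was Rars (-1.46), while Eprs (-1.37) and Nars (-1.21) were called in dimmer probe sets and were at -0.69 and -0.41 in their brightest.

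The calls among genes of energy metabolism were all lower. Oxidative phosphorylation had 6 calls of 69 genes (8.7%, against 4.14% of all genes), with a median of -0.17, but 1 call without SOD1 week 11 replicate 2 and 0 after quantile normalization (median 0). The calls included the complex I subunit Ndufb5 (-1.08), the complex III core protein Uqcrc1 (-0.99 ± 0.27, adjusted p = 0.0674) and the ATP synthase subunit Atp5c1 (-0.92). The other Atp5c1 probe set had the opposite sign and was not called. Another ATP synthase subunit, Atp5pb, was called in 1 probe set (-1.22 ± 0.3, adjusted p = 0.0517) but was at -0.1 in its brightest. Glycolysis and the tricarboxylic acid cycle had 5 calls of 32 genes (15.6%), 2 without SOD1 week 11 replicate 2 and 1 after quantile normalization. The 5 were the enolase Eno2, the pyruvate dehydrogenase subunit Pdhb (-0.84), the dihydrolipoamide dehydrogenase Dld (-2.19 ± 0.62, adjusted p = 0.0748), the succinate-CoA ligase subunit Suclg1 (-0.79 ± 0.18, adjusted p = 0.0409) and the fumarase Fh1 (-0.65). Higd1a, a small protein of the respiratory chain, spanned 5 to 5.98 (median 5.66) in vehicle SOD1 mice and 6.45 to 6.84 (median 6.52) in WT mice at week 15, and 7.14 to 8.27 (median 7.64) in SOD1 mice and 6.87 to 7.67 (median 7.52) in WT mice at week 11. The level of Higd1a thus fell in both genotypes between the weeks, by 2.13 in SOD1 mice and by 0.83 in WT mice, and the interaction was -1.31 ± 0.23 (adjusted p = 0.0193).

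In lipid metabolism Elovl4, which elongates very long chain fatty acids, spanned 4.63 to 6.39 (median 5.72) in vehicle SOD1 mice and 6.36 to 7.29 (median 7.04) in WT mice at week 15. At week 11 it spanned 5.96 to 7.31 (median 6.79) in SOD1 mice and 5.52 to 6.72 (median 6.43) in WT mice. The interaction was -2.05 ± 0.35 (adjusted p = 0.0138), and 6 of 7 vehicle mice were below every WT mouse at week 15. Cpt1a, the carnitine transferase that admits fatty acids to mitochondria (-1.69 ± 0.34, adjusted p = 0.0238), and Ugcg, the glucosylceramide synthase (-2.21 ± 0.48, adjusted p = 0.0311), were lower in all 18 alternatives. Atp8a1, a flippase that keeps phosphatidylserine on the inner leaflet, was lower in 3 probe sets (-2.34, -1.79 and -1.55), each called in all 18 alternatives. In the cholesterol pathway Sc5d (-2.62), Tm7sf2 (-1.41), Cyp51 (-1.02) and Sqle (-0.79) were called lower and Lss (0.82) higher. Both other Cyp51 probe sets had the opposite sign and were not called.

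Redox genes were called lower in 5 of 42 (11.9%, against 3.18% lower of all genes), in 2 without SOD1 week 11 replicate 2 and in 1 after quantile normalization. Among the 5 were Gclm, a subunit of the first enzyme of glutathione synthesis (-1.32 ± 0.38, adjusted p = 0.0776), the mitochondrial thioredoxin Txn2 (-0.91 ± 0.22, adjusted p = 0.0517), which was called in all 3 probe sets, and the thioredoxin reductase Txnrd1 (-1.35 ± 0.38, adjusted p = 0.0711). The glutathione synthetase Gss was called in 1 probe set (-1.65 ± 0.42, adjusted p = 0.0536) and was at -0.11 in its brightest. Ywhae, the adaptor protein 14-3-3 epsilon, was called in 3 probe sets (-1.34, -1.24 and -0.93). The probe set with the largest of these ran between 8.35 and 9.27 in vehicle SOD1 mice and between 9.12 and 9.52 in WT mice at week 15, and between 10.02 and 10.83 in SOD1 mice and between 8.87 and 10.13 in WT mice at week 11. The Ywhae effects were 0.99, 1.07 and 0.76 at week 11 and were not called at week 15.

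Synaptic vesicle genes were called lower in 5 of 40 (12.5%, against 3.18% lower of all genes, median -0.41), but in 0 without the 3 arrays that stood apart (median -0.19), and leaving out single mice gave 2 (without SOD1 week 11 replicate 2) to 8 calls (without SOD1 week 11 replicate 1). The 5 included the synaptophysin relative Sypl (-3.2 ± 0.79, adjusted p = 0.0519), synaptophysin itself (Syp, -0.93) and the membrane-cutting dynamin Dnm1 (-1.33). Among channels, Kcnq5, an M-type potassium channel subunit, spanned 2.71 to 6.02 (median 3.45) in vehicle SOD1 mice and 7.18 to 8.19 (median 7.59) in WT mice at week 15, and 4.06 to 6.49 (median 5.48) in SOD1 mice and 5.27 to 7.66 (median 6.88) in WT mice at week 11. Its effect was -3.69 ± 0.43 at week 15, the lowest of the called probe sets, and the interaction was -2.44 ± 0.61 (adjusted p = 0.0519), while both other Kcnq5 probe sets were at -0.6 and not called. The beta subunit Kcnab2 (-1.14 ± 0.24, adjusted p = 0.0284) and the calcium channel subunits Cacng2 (-1.55 ± 0.33, adjusted p = 0.0311) and Cacnb4 (-1.3 ± 0.33, adjusted p = 0.0549) were lower. The other Kcnab2 probe set had the opposite sign and was not called. Nek4, a protein kinase, had an interaction of -2.81 ± 0.48 (adjusted p = 0.0138), with 2.71 to 4.29 in vehicle SOD1 mice and 3.94 to 6.47 in WT mice at week 15, against 4.68 to 6.23 in SOD1 mice and 4 to 5.5 in WT mice at week 11, and a second Nek4 probe set was at -0.51 (adjusted p = 0.388).

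**Figure D5:**
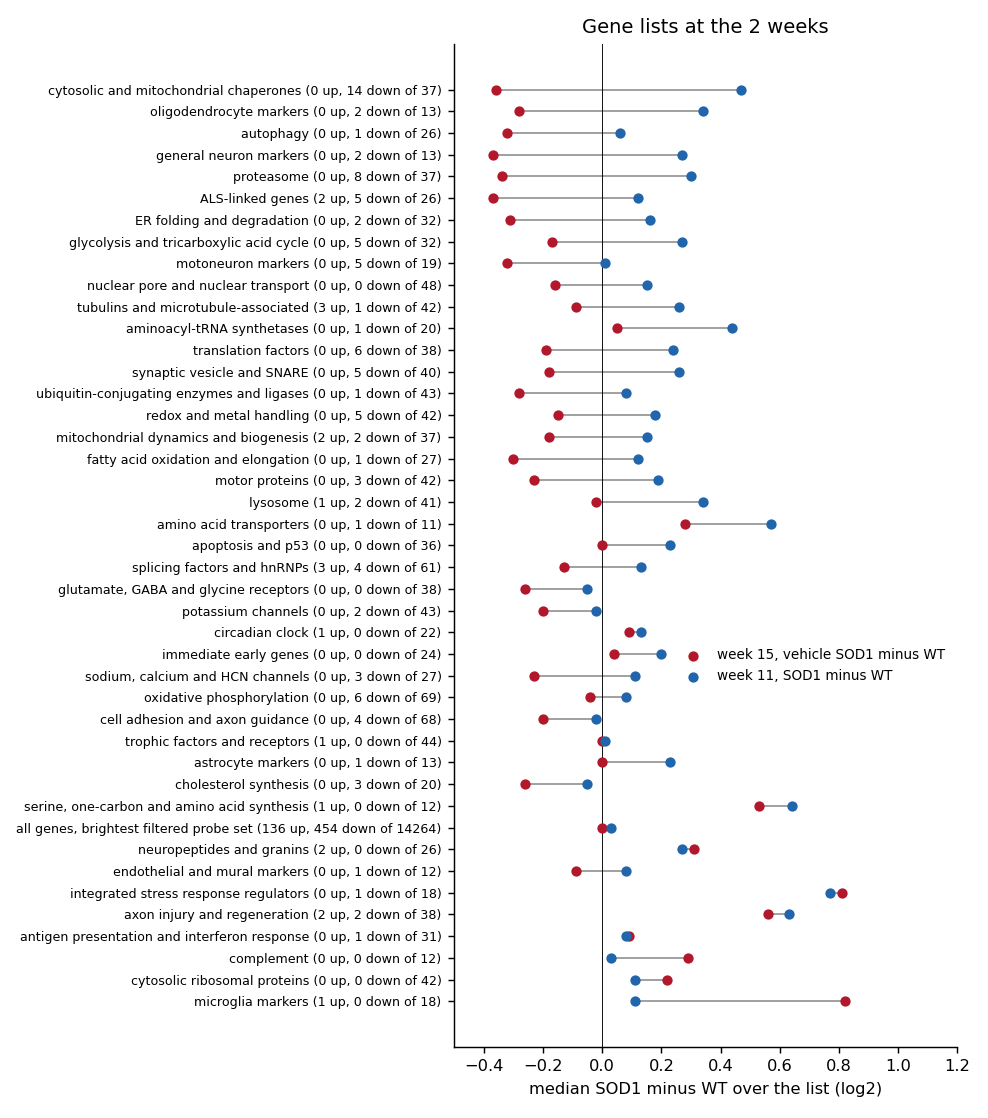
Median SOD1 minus WT difference (log2) over each gene list at week 15 (red, vehicle SOD1 mice) and week 11 (blue), by the brightest probe set of each gene, with the number of members called in the interaction in each direction beside the name. Chaperones have the longest line with week 15 on the left, microglial markers the longest with week 15 on the right (0.82 at week 15 and 0.11 at week 11), and all genes together lie near 0 at both weeks.

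Some of the most negative and most positive interactions belonged to genes outside these lists. Marf1, which encodes an RNA-cutting regulator known from oocytes, spanned 4.06 to 7.3 (median 5.05) in vehicle SOD1 mice and 7.55 to 8.34 (median 7.77) in WT mice at week 15, without overlap, and 6.81 to 8.56 (median 7.91) in SOD1 mice and 2.97 to 8.05 (median 7.64) in WT mice at week 11. Its interaction was -3.43 ± 0.85 (adjusted p = 0.0522), the lowest of all calls, while its other probe sets, both dimmer, were at 0.44 and 0.7 and not called. Blzf1, the Golgi protein golgin-45 (-2.73 ± 0.51, adjusted p = 0.0197), and Gmps, which makes GMP (-2.7 ± 0.6, adjusted p = 0.0347), were lower in all 18 alternatives, but the brightest Gmps probe set was at 0.01 (adjusted p = 0.989). At the other end, Cyp1b1, a cytochrome P450, spanned 4.52 to 7.94 (median 5.76) in vehicle SOD1 mice and 3.49 to 4.66 (median 4.04) in WT mice at week 15, and 3.59 to 6.11 (median 5.14) in SOD1 mice and 3.89 to 6.7 (median 5.73) in WT mice at week 11, an interaction of 2.51 ± 0.71 (adjusted p = 0.0742). Rabgap1l, a regulator of Rab GTPases (2.63), and Ctla2a, a cysteine protease inhibitor (2.64), were higher, but neither was called without the 3 arrays (adjusted p = 0.11 and 0.199). The integrin-binding protein gene Nisch (2.3 ± 0.6, adjusted p = 0.0576) was called in 17 of the 18. The brightest probe sets of Rabgap1l (-0.38) and Nisch (-0.3) had the opposite sign and were not called.

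Among the 211 probe sets called higher was 1 of Malat1. Malat1, a long non-coding RNA of nuclear speckles, spanned 12.04 to 12.96 (median 12.35) in vehicle SOD1 mice and 10.32 to 12.53 (median 11.29) in WT mice at week 15. The week 11 mice gave 9.27 to 11.46 (median 10.19) in SOD1 mice and 10.65 to 11.68 (median 11.19) in WT mice. The ranges of the genotypes overlapped at both weeks, while those of SOD1 mice at week 15 and week 11 did not. The interaction was 1.98 ± 0.41 (adjusted p = 0.0268), and the other Malat1 probe sets, not called, lay between -0.21 and 1.67. Kcnq1ot1, an imprinted long non-coding RNA, was called higher in 1 probe set (1.88 ± 0.44, adjusted p = 0.0409).

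Dicer1 encodes the enzyme that cuts microRNA precursors. It spanned 4.38 to 7.33 (median 6.38) in vehicle SOD1 mice and 4.45 to 5.61 (median 5.31) in WT mice at week 15, and 5.02 to 5.64 (median 5.4) in SOD1 mice and 5.61 to 7.12 (median 6.12) in WT mice at week 11. In 6 of 7 vehicle mice Dicer1 was above every WT mouse, and in the remaining mouse it was below all. WT mice changed between the weeks by -1.07 (adjusted p = 0.0493) and SOD1 mice by 0.89 (adjusted p = 0.0237), which gave an interaction of 1.96 ± 0.43 (adjusted p = 0.0342). A second Dicer1 probe set was at -0.2 (adjusted p = 0.874).

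Hnrnpa1, an RNA-binding protein linked to ALS, spanned 7.17 to 8.84 (median 7.49) in vehicle SOD1 mice and 5.85 to 6.96 (median 6.66) in WT mice at week 15, without overlap. Among week 11 mice it spanned 6.04 to 6.7 (median 6.42) in SOD1 mice and 6.45 to 7.54 (median 6.63) in WT mice. The interaction was 1.83 ± 0.37 (adjusted p = 0.0262). Splicing factors as a list had 3 members called higher and 4 lower of 61 (11.5%, against 4.14% of all genes, median -0.26). The kinase Prpf4b (1.21 ± 0.27, adjusted p = 0.0344) was higher, although 4 of its 5 other probe sets were below 0 and none was called. The neuronal splicing repressor Ptbp2 (-2.56 ± 0.63, adjusted p = 0.0517) and the spliceosome ligase Prpf19 (-1.7) were lower. The other Prpf19 probe set had the opposite sign and was not called. Srsf3 (-2.13 ± 0.5, adjusted p = 0.0409) and Hnrnpf (-1.47 ± 0.36, adjusted p = 0.0492) were called lower in dimmer probe sets, with the brightest at -0.1 for Srsf3 and 0.4 for Hnrnpf. Ccnl2 (1.23 ± 0.25, adjusted p = 0.0268) and Pnisr (1.52 ± 0.35, adjusted p = 0.0398), both encoding proteins of nuclear speckles, were higher in all 18 alternatives in 1 probe set each (0.11 and 0.02 in the brightest), and the mitochondrial import protein Timm44 was higher in both of its called probe sets (0.79 and 0.95).

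Npy, a peptide that appears in injured sensory neurons, was at 4.15 to 7.93 (median 6.57) in vehicle SOD1 mice and 3.83 to 4.32 (median 3.95) in WT mice at week 15. At week 11 it was at 3.54 to 4.4 (median 3.84) in SOD1 mice and 3.35 to 4.17 (median 3.83) in WT mice. In 6 of 7 vehicle SOD1 mice Npy was above every mouse of the other groups, and the interaction was 1.92 ± 0.52 (adjusted p = 0.0685). The metalloprotease inhibitor Timp1 was at 4.5 to 6.3 (median 5.42) in vehicle SOD1 mice and 2.95 to 3.66 (median 3.18) in WT mice at week 15, without overlap, and at 2.78 to 5.23 (median 3.42) in SOD1 mice and 2.63 to 4.24 (median 3.29) in WT mice at week 11. Its interaction was 1.9 ± 0.48 (adjusted p = 0.0546).

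At week 15, 8 of 18 microglial markers were called higher in vehicle SOD1 mice and 0 lower, against 2.14% higher of all genes, and at week 11 none was called. Ctss, encoding the microglial protease cathepsin S, spanned 7.11 to 8.79 (median 7.65) in vehicle SOD1 mice and 4.57 to 6.8 (median 6.32) in WT mice at week 15, and 6.79 to 8.73 (median 7.94) in SOD1 mice and 7.33 to 8.54 (median 7.73) in WT mice at week 11. The genotypes were apart at week 15, yet it was WT mice that changed between the weeks (-1.78, adjusted p = 0.00388) and not SOD1 mice (0.08, adjusted p = 0.881). The interaction of Ctss was 1.86 ± 0.49 (adjusted p = 0.061, and 0.162 without the 3 arrays). C1qb, the complement component made by microglia, had a called probe set at 1.97 ± 0.61 (adjusted p = 0.0943, and 0.137 without the 3 arrays), while its brightest probe set was at 1.03 (adjusted p = 0.212). The lysozyme gene Lyz1 was at 2.38 ± 0.7 (adjusted p = 0.0813).

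Over the whole list, the interaction was called higher in 1 of 18 microglial markers (5.56%, against 4.14% of all genes) and lower in 0, and leaving out single mice gave 0 (without WT week 11 replicate 6) to 5 calls (without vehicle SOD1 replicate 1). The list had a median interaction of 0.67 from median effects of 0.82 at week 15 and 0.11 at week 11. Their summed level ran between 8.9 and 11.12 (median 9.96) in vehicle SOD1 mice and between 8.18 and 8.86 (median 8.75) in WT mice at week 15, without overlap, and between 8.61 and 10.45 (median 9.62) in SOD1 mice and between 8.92 and 9.87 (median 9.4) in WT mice at week 11. The defining marker Aif1 was at background in all groups (medians of 2.11 to 2.23). The receptor Csf1r had medians of 8.82 and 7.22 in vehicle SOD1 and WT mice at week 15 and 7.84 and 7.6 in SOD1 and WT mice at week 11 (interaction 1.53, adjusted p = 0.178). How much of the interactions of Ctss, C1qb and Lyz1 goes with the number of microglia cut with the motoneurons was not tested.

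The astrocyte list had 1 call lower of 13 (7.69%, against 4.14% of all genes), which was S100b (-0.73). The other S100b probe set had the opposite sign and was not called. Gfap was at 1.55 (adjusted p = 0.267). At week 15 the Gfap medians were 8.69 and 4.58 in vehicle SOD1 and WT mice. At week 11 they were 6.93 and 4.44 in SOD1 and WT mice. The oligodendrocyte list had 2 calls lower of 13 (15.4%), Mobp (-1.5) and Olig1 (-1.24), and 11 of 13 members were below 0, with a median of -0.78 from median effects of -0.28 at week 15 and 0.34 at week 11. Without the 3 arrays 0 of them were called (median -0.43), and the highest member was Mbp at 0.04 (adjusted p = 0.914). Of 9 interneuron markers Calb2 alone was called (11.1%), and the inhibitory markers Gad1 (0.14, adjusted p = 0.933) and Slc6a5 (0.02, adjusted p = 0.985) did not pass.

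In 94 called probe sets only the change in WT mice was called, and in 48 the changes in both genotypes. Nfib belonged to the 48. Nfib, a transcription factor of late neuronal and glial differentiation, spanned 4.35 to 5.69 (median 4.68) in vehicle SOD1 mice and 7.19 to 7.55 (median 7.31) in WT mice at week 15, and 5.13 to 6.74 (median 5.46) in SOD1 mice and 3.53 to 6.53 (median 5.93) in WT mice at week 11. WT mice changed by 1.82 (adjusted p = 0.00242) and SOD1 mice by -0.72 (adjusted p = 0.091), and the interaction was -2.54 ± 0.47 (adjusted p = 0.0197). Of the 94, the AMPA receptor subunit Gria4 rose in WT mice by 2.81 (adjusted p = 0.00026) and in SOD1 mice changed by 0.8 (adjusted p = 0.117), with an interaction of -2 ± 0.57 (adjusted p = 0.0751, and 0.193 without the 3 arrays). The cadherin Cdh8 rose by 1.8 in WT mice and changed by 0.01 in SOD1 mice (interaction -1.79 ± 0.51, adjusted p = 0.0763), and Egfl6, a secreted matrix protein, changed by -1.81 in WT mice and -0.1 in SOD1 mice (interaction 1.71 ± 0.42, adjusted p = 0.0519).

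Of 58 probe sets with an effect called at both weeks 52 had the same sign at both, 12 had a called interaction (20.7%) and 46 had none, and examples of these chosen after their values were seen are the regeneration protein Sprr1a and the stress factors Atf3 and Ddit3. Sprr1a was at 4.36 at week 15 and 3.78 at week 11, with an interaction of 0.59 (95% interval -1.17 to 2.34). Atf3 was at 3.32 and 3.85 (interaction -0.53, interval -1.77 to 0.7), and Ddit3 at 1.9 and 1.74 (interaction 0.15, interval -0.45 to 0.76). The intervals leave room for changes of over 1.5-fold in either direction for Sprr1a and Atf3. Others had intervals below 0 without being called: the amino acid transporter Slc7a3 was at 1.1 and 2.36 (interaction -1.26, interval -2.32 to -0.2, adjusted p = 0.186), and the hormone Fgf21 at 1.42 and 2.61 (interaction -1.19, interval -2.13 to -0.25, adjusted p = 0.163).

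Among 18 regulators of the integrated stress response 1 was called (5.56%, against 4.14% of all genes), Cebpg (-1.74 ± 0.52, adjusted p = 0.0862), with a median interaction of -0.03 from median effects of 0.81 at week 15 and 0.77 at week 11, and the sign of that median turned after quantile normalization (0.15). Among 38 axon injury genes 4 were called (10.5%), 2 higher, Npy and Timp1, and 2 lower, Hspb1 and the semaphorin Sema6a (-1.06), with a median of -0.02. The amino acid transporter Slc7a5, a target of the stress response, was called. It spanned 6.33 to 7.69 (median 6.84) in vehicle SOD1 mice and 6.03 to 6.7 (median 6.56) in WT mice at week 15, and 6.45 to 7.67 (median 7.18) in SOD1 mice and 4.07 to 6.1 (median 5.57) in WT mice at week 11. Its interaction was -1.19 ± 0.37 (adjusted p = 0.0943, and 0.247 without the 3 arrays), and WT mice changed by 1.07 (adjusted p = 0.0178) where SOD1 mice changed by -0.12 (adjusted p = 0.747). No immediate early gene was called, and the one of smallest p, Nr4a2, was at 0.68 (adjusted p = 0.143).

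The groups did not overlap at week 15 in 151 of the 993 called probe sets (15.2%), against 1.59% of all 25533, and at week 11 in 51 (5.14%), against 0.713%. Selection on the interaction, which uses the same values, itself favours groups that do not overlap. Of the 934 genes called, 654 had 2 or more tested probe sets. In 55 of these at least 2 were called in the same direction, and in 0 were 2 called in opposite directions. Of 1404 further probe sets of those genes that were not the one of smallest p, 949 (67.6%) had the same sign as it. The 1404 include further called probe sets, and the same share for genes without a call was not computed. By the brightest probe set, 53.5% of all genes had an interaction below 0.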

How the data were processed

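The authors deposited log2 values from mouse genome arrays, normalized by GCRMA in Affymetrix Expression Console (no versions are given in the sources used here), 1 array per mouse. GCRMA corrects background by probe sequence and sets all arrays on 1 scale, so values near 2 are background and folds of dim transcripts are compressed. Signal over background and the number of arrays limit the precision. Probe sets were named from the platform annotation.

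Starting from the deposited log2 values of the 28 arrays without G-CSF, probe sets were kept if above the 20th centile of all values (2.39) on at least 4 arrays and with an SD at or above the 30th centile (0.239), which left 31218. limma 3.58.1 (R 4.3.3) fitted 1 mean per group, and p-values were adjusted over all 31218 within each contrast. Replicates are separate mice. No column of another sample was used. The test was checked on simulated data with independent noise for each probe set. That check cannot show how the test behaves when array properties move with the contrast. Alternatives changed the filter, scaling, weights, covariates, thresholds and arrays.

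Named transcripts were, among called probe sets naming 1 gene, the 15 largest interactions each way, the 8 of smallest p each way in each pattern, up to 20 that reversed, called members of gene lists, and up to 20 genes with several called probe sets in 1 direction. A list with no called member gave its member of smallest p. Lists used the brightest probe set of a gene. The members and lists were chosen with earlier results of these data known. Adjusted p-values in the text are from limma unless said otherwise. Promoters are from RefSeq (GRCm38.p6).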

Additional observations from a re-analysis of the deposited data

Results flagged for a closer look

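The interaction itself was a difference between the genotype effects of the 2 weeks, and it was called in 993 probe sets. The smallest adjusted p-values, all under 0.01 in limma, belonged to Ctsz (-2.05 and -3.11 in its probe sets), Eif2d (2.22), Rbfox3 (-2.27) and Calb2 (-1.34), described above.

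Single mice stood apart from the rest of their group in 16 of 120 groups examined for 30 described genes, where chance gives about 1 in 20. Vehicle SOD1 replicate 3 was low for Ache (4.52), Cct8 (5.91) and Dnaja2 (4.74), 3 transcripts with called negative interactions. WT week 11 replicate 6 was low for Ache (4.44), Cct8 (4.32), Dnaja2 (3.35) and Prima1 (4.49). Both arrays are among the 3 that stood apart. Other mice of WT at week 15 stood apart for Calb2 (replicate 7, 9.29), Elovl4 (replicate 2, 6.36), Prima1 (replicate 2, 6.62), Nek4 (replicate 4, 3.94) and Psme3 (replicate 3, 3.94). SOD1 mice at week 11 stood apart for Calb2 (replicate 6, 8.98), Cct8 (replicate 5, 7.84), Elovl4 (replicate 8, 5.96) and Itm2a (replicate 2, 10.88).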

How the results depend on the processing

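The interaction called 993 probe sets as described, with 1933 at week 15 and 368 at week 11. Its count moved by over 1.5 times after quantile normalization (402), with each array shifted to a common median (1547, which moved the median interaction of all probe sets from -0.03 to -0.16), with the 3 prime minus 5 prime covariate (244), with 18S as a covariate (338), with the array SD as a covariate chosen after seeing the data (6), and at an adjusted p under 0.05 (196). At week 15 the count moved with the array SD (877), at an adjusted p under 0.05 (1173) and at a minimum fold of 2 (1001). At week 11 it moved after quantile normalization (185), with array weights (939), the 3 prime minus 5 prime covariate (154), the array SD (154), an adjusted p under 0.05 (176) and a fold of 2 (153). The cause was not tested. Unadjusted p was under 0.05 for the interaction in 6014 of 31218 probe sets.

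Leaving out 1 mouse gave 428 to 1422 calls for the interaction, 1373 to 2392 at week 15 and 140 to 517 at week 11. The interaction had under 662 calls without WT week 11 replicate 6 (428), WT week 15 replicates 6 (449), 7 (486), 4 (569) and 3 (610), and SOD1 week 11 replicates 2 (468), 4 (483), 3 (541) and 7 (621). At week 11 the count was lowest without WT replicate 5 (140), and it was also low without SOD1 replicates 4 (206), 3 (207), 8 (225) and 7 (240) and WT replicate 2 (220). The smaller fits also had fewer samples.

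With the replicate number as a block the interaction had 424 calls, week 15 had 1775 and week 11 had 137. The numbers did not pair the samples, since deviations from the group means correlated between -0.2 and 0.1 (median 0) over 39 pairs of the same number.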
